A study of Mus musculus with 3 samples.

Results

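The levels of 8 genes for the electrical behaviour of the heart were followed in Visium sections of mouse heart, a method in which a cryosection lies on barcoded capture spots and each spot records unique molecular identifiers (UMIs, counted transcripts) from the tissue above it. The genes were taken as a fixed list of symbols, Kcnj2, Kcnj3, Kcnd2, Kcnip2, Kcnq1, Kcnh2, Gja1 and Gja5, and all 8 were found among the 32285 genes of the files, of which 18784 had a UMI. This list and the other gene lists were chosen with earlier results of these data known. Counts over them, set beside the share of all genes, are therefore descriptive only. Each condition was 1 section of heart from a C57BL/6 mouse. The sham mouse was gavaged with vehicle for at least 7 days and then underwent the operation without ligation. The I/R mouse was gavaged with vehicle for at least 7 days, the LAD, the left coronary branch that feeds the anterior wall, was ligated for 30 min, and the heart was taken after 24 h of reperfusion. The SBP mouse had the same ischemia and reperfusion after at least 7 days of gavage with MUSKARDIA, the name under which the labels give Shexiang Baoxin Pill (SBP). Vehicle was therefore shared by sham and I/R, and ischemia with reperfusion by I/R and SBP.

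The membrane potential of a ventricular cardiomyocyte rests on inward rectifier potassium channels, and its return after each beat rests on voltage-gated potassium channels that open early, as the transient outward current, or late, as the delayed rectifiers. Pore proteins work together with auxiliary subunits that set their number at the surface and their gating. Connexins form the gap junctions through which current passes from cell to cell, and different connexins serve working myocardium, conduction tissue and vessel walls.

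The kept spots numbered 2234 in the sham section, 2082 in that of I/R and 1960 in that of SBP, with 25118258, 30238530 and 21631280 UMIs and a median of 10645, 14672 and 10652.5 UMIs per spot. Genes of the mitochondrial genome took 44.3% to 48.6% of the UMIs. Barcodes of 1093 spots were shared by all 3 sections. The atrial markers Myl7, Sln and Bmp10 had at most 4 UMIs in any section, and the ventricular myosin light chain Myl2 had at least 8417 counts per 1000000 UMIs (CPM). The fourth atrial marker, Myl4, had 75 to 79 UMIs per section, 2.61 to 3.61 CPM. The Y-linked gene Ddx3y had 29.6 to 40.3 CPM in all 3 sections. Each spot can cover more than 1 cell and more than 1 cell type, and fewer cells of a type cannot be told apart from less RNA per cell. With 1 section per condition there was no test between conditions, and every 95% interval, exact Poisson for a level and exact conditional binomial for a ratio, covers counting error only.

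The genes lie on 8 chromosomes of the mouse build GRCm38. Kcnd2 lies on chromosome 6 from 21215503 to 21729805 on the plus strand and Kcnip2 on chromosome 19 from 45791839 to 45816061 on the minus strand. Kcnj2 lies on chromosome 11 from 111066164 to 111076821, Kcnj3 on chromosome 2 from 55435970 to 55598145, Kcnq1 on chromosome 7 from 143106362 to 143427042, Gja1 on chromosome 10 from 56377330 to 56402513 and Gja5 on chromosome 3 from 96904693 to 97077416, all on the plus strand. Kcnh2 lies on chromosome 5 from 24319589 to 24351604 on the minus strand. Kcnq1 overlaps the antisense gene Kcnq1ot1, which had 46 to 68 UMIs per section, and Gja5 overlaps Gpr89 on the other strand, with 145 to 226 UMIs. Whether the counting used strand is not given in the sources used here, so the values of Kcnq1 and Gja5 carry that uncertainty.

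The promoters of Kcnd2 and Kcnip2, the pair with the lowest I/R over sham ratios, and of Kcnj2, whose level differed little, are shown because they let the starts of genes with unlike ratios be compared. Each window runs from 250 bases before to 50 after the RefSeq gene start (GRCm38.p6) in the direction of transcription, with motif matches in capitals. The window of Kcnd2 is chr6:21215096-21215395 on the plus strand, that of Kcnip2 is chr19:45816014-45816313 on the minus strand and that of Kcnj2 is chr11:111065914-111066213 on the plus strand.
Kcnd2: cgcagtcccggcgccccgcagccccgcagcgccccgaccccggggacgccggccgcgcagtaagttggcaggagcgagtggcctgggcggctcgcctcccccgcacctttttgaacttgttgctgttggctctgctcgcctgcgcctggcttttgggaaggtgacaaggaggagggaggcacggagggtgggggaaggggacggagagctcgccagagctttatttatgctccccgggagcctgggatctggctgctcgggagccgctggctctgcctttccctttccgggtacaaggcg
Kcnip2: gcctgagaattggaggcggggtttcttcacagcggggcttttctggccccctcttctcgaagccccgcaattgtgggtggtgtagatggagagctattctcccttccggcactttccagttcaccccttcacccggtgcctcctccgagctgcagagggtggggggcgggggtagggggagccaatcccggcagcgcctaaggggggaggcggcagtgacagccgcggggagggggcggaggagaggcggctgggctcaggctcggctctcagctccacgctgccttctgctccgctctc
Kcnj2: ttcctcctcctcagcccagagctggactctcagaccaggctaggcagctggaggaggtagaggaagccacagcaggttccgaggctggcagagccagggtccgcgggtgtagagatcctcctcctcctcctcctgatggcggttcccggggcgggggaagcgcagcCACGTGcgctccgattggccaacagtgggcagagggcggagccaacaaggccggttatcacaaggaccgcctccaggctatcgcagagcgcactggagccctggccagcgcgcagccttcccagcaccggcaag
A set of 5 short motifs was searched on both strands in the windows of the 7 members that the RefSeq table holds. One was GGAATG, to which factors of the TEAD family bind. The clock factors bind the E-box, searched as CACGTG, and the D-box, searched as TTATGTAA. The last were AGATAA, to which GATA factors bind, and GGTGTGA, to which T-box factors bind. Among all 32851 windows of 300 bases, 14.7% held the TEAD motif, 7.15% the E-box, 0.938% the D-box, 11.2% the GATA motif and 3.98% the T-box motif. The window of Kcnj2 held 1 E-box and that of Gja1 held 1 GATA motif, and none of the 5 motifs was found in the windows of Kcnj3, Kcnd2, Kcnip2, Kcnh2 and Gja5. The windows of Kcnh2 (24329542 to 24329841) and Gja5 (97032152 to 97032451) lie inside the gene spans given above. For these genes the search thus covered an internal start and not the outermost one. The window of Kcnd2 ends at 21215395, before the gene start of 21215503 given above, so RefSeq places that start earlier.

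The transient outward current genes Kcnd2 and Kcnip2 were 1.91- and 1.94-fold lower in I/R than in sham, and 1.87- and 1.71-fold lower in SBP than in sham. Kcnj3 and Kcnh2 were lower in I/R, while their levels in SBP were close to sham. Kcnj2, Kcnq1 and Gja1 were within 1.5-fold in every comparison of sections, and Gja5, the least counted member, was higher in I/R. Of the 8 members, 4 were at least 1.5-fold lower and 1 at least 1.5-fold higher in I/R than in sham. Among the 12231 genes with at least 50 UMIs over both sections, 3.49% were lower and 23.2% higher by that fold, 26.7% in either direction. With TMM or median-of-ratios factors the 4 lower members kept their side and none was higher, whereas per cardiomyocyte marker UMI, an alternative chosen after seeing the data, none of the 4 was past the fold. No share of all genes is given under these alternatives. Markers of neutrophils, macrophages and red blood cells differed as well. The sum of 4 neutrophil markers was 27.2, 236 and 115 CPM in sham, I/R and SBP, with 4 of 4 past the fold in I/R over sham. The sum of 5 macrophage markers was 576, 1081 and 634 CPM in that order, with 3 of 5 past the fold, and that of 4 hemoglobin genes was 2878, 4094 and 3848 CPM, with 2 of 4. The part of these cells in the members' ratios was not tested. The median log2 ratio of the members was -0.37, against 0.24 over all genes tested.

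**Figure D1:**
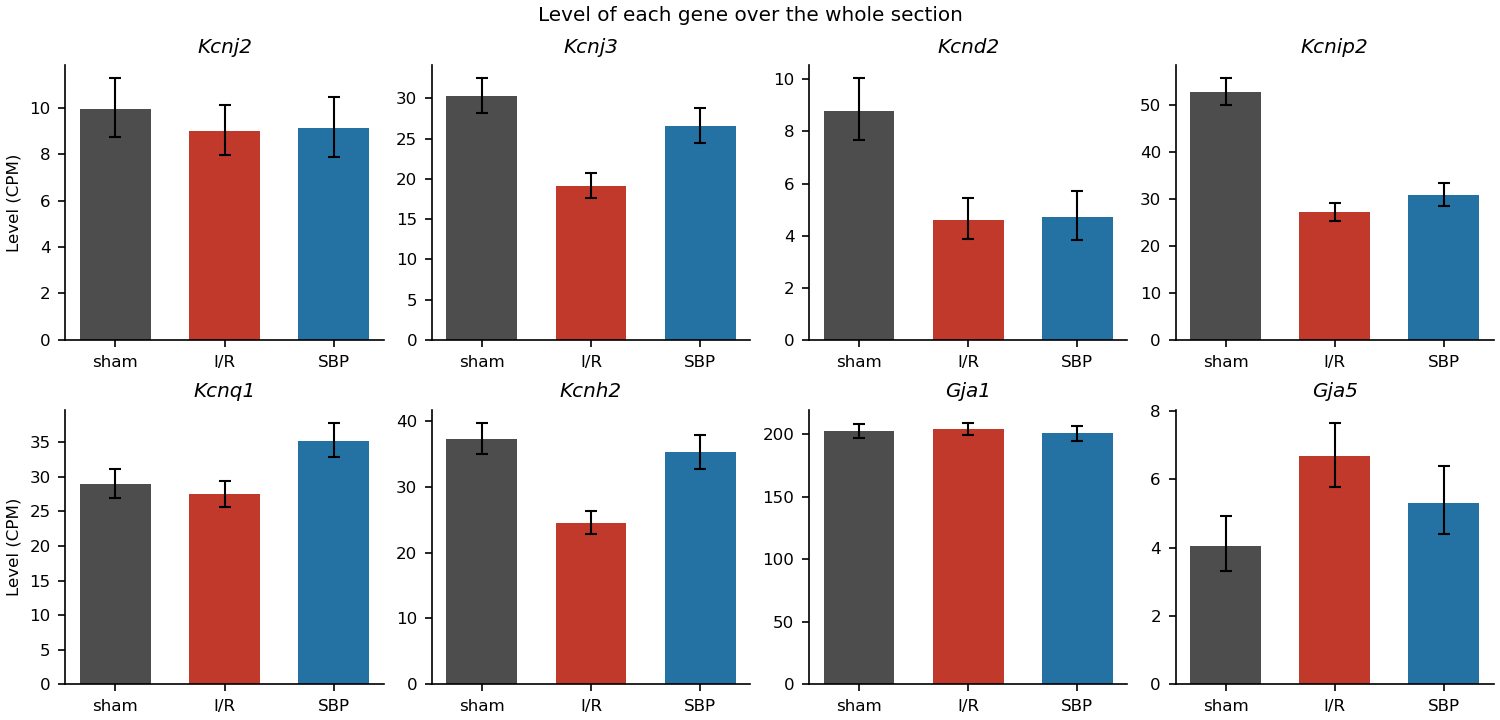
Level of each member (CPM, vertical axis from 0) in the sham, I/R and SBP section, with exact Poisson 95% intervals as error bars. Kcnip2 stood at 52.8 CPM in sham and at 27.2 and 30.9 CPM in I/R and SBP, while Gja1 stood between 201 and 204 CPM in all 3.

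Kcnd2 encodes the Kv4.2 pore of the fast transient outward current, and its level was 8.80 CPM (7.68 to 10.0) in the sham section, 4.60 CPM (3.86 to 5.43) in that of I/R and 4.72 CPM (3.84 to 5.72) in that of SBP. Sham was high and its interval overlapped neither injured section. Kcnip2 encodes KChIP2, the auxiliary subunit that Kv4 pores need to reach the surface, and its level was 52.8 CPM (49.9 to 55.7) in the sham section, 27.2 CPM (25.3 to 29.1) in that of I/R and 30.9 CPM (28.6 to 33.3) in that of SBP. Again sham was high, and the intervals of the injured sections overlapped each other but not that of sham.

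The log2 ratio of I/R over sham was -0.94 for Kcnd2 (95% interval -1.25 to -0.62) and -0.96 for Kcnip2 (-1.09 to -0.83). Only 0.719% and 0.662% of the genes tested had lower ratios. Relative to the median of all genes the ratios were -1.18 and -1.20. In SBP over I/R Kcnd2 had a ratio of 0.04 (-0.35 to 0.42) and Kcnip2 of 0.19 (0.04 to 0.33). In SBP over sham they were the 2 members past 1.5-fold, both lower, at -0.90 (-1.25 to -0.55) and -0.77 (-0.91 to -0.64). In that comparison 2.77% of 11768 genes were lower by 1.5-fold or more, 5.31% were higher and 8.08% differed in either direction.

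Kcnj3 encodes GIRK1, a subunit of the acetylcholine-gated potassium channel, and had 30.3 CPM (28.1 to 32.5) in the sham section, 19.1 CPM (17.6 to 20.8) in that of I/R and 26.6 CPM (24.5 to 28.8) in that of SBP. The I/R section was low, apart from both others, and the intervals of sham and SBP overlapped. Its log2 ratio was -0.66 (-0.82 to -0.50) for I/R over sham, 0.47 (0.30 to 0.64) for SBP over I/R and -0.19 (-0.35 to -0.03) for SBP over sham. Kcnj5, which encodes the GIRK4 partner of that channel, had 16.1, 16.8 and 21.8 CPM in sham, I/R and SBP, so the partner subunits did not show the same order of sections.

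Kcnh2 encodes the ERG pore of the rapid delayed rectifier and had 37.3 CPM (35.0 to 39.8) in the sham section, 24.6 CPM (22.8 to 26.4) in that of I/R and 35.2 CPM (32.8 to 37.8) in that of SBP. Here too I/R alone was low. The log2 ratio was -0.60 (-0.74 to -0.46) for I/R over sham, just past the fold, 0.52 (0.37 to 0.67) for SBP over I/R and -0.08 (-0.22 to 0.06) for SBP over sham. Kcnq1, the pore of the slow delayed rectifier, had 29.0 CPM (26.9 to 31.2) in the sham section, 27.5 CPM (25.6 to 29.4) in that of I/R and 35.3 CPM (32.8 to 37.9) in that of SBP, where the SBP section was the high one. Its ratio of SBP over I/R was 0.36 (0.22 to 0.50), and that of I/R over sham was -0.08 (-0.22 to 0.07). Kcne1, which encodes the auxiliary subunit of Kcnq1 channels, had 5.22, 3.87 and 4.81 CPM.

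Kcnj2 encodes Kir2.1, the main pore of the inward rectifier current in ventricle, and had 9.95 CPM (8.76 to 11.3) in the sham section, 9.0 CPM (7.96 to 10.1) in that of I/R and 9.11 CPM (7.88 to 10.5) in that of SBP. All 3 intervals overlapped, and the ratio of I/R over sham was -0.15 (-0.40 to 0.11). Gja1 encodes connexin 43, the gap junction protein of working ventricular myocardium, and had 203 CPM (197 to 208) in the sham section, 204 CPM (199 to 209) in that of I/R and 201 CPM (195 to 207) in that of SBP. Its ratio of I/R over sham was 0.01 (-0.04 to 0.07), and this direction depended on the scaling. With median-of-ratios size factors, which move all I/R over sham ratios by -0.24, the Gja1 ratio turned to -0.23, and relative to the median of all genes it was also -0.23.

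**Figure D2:**
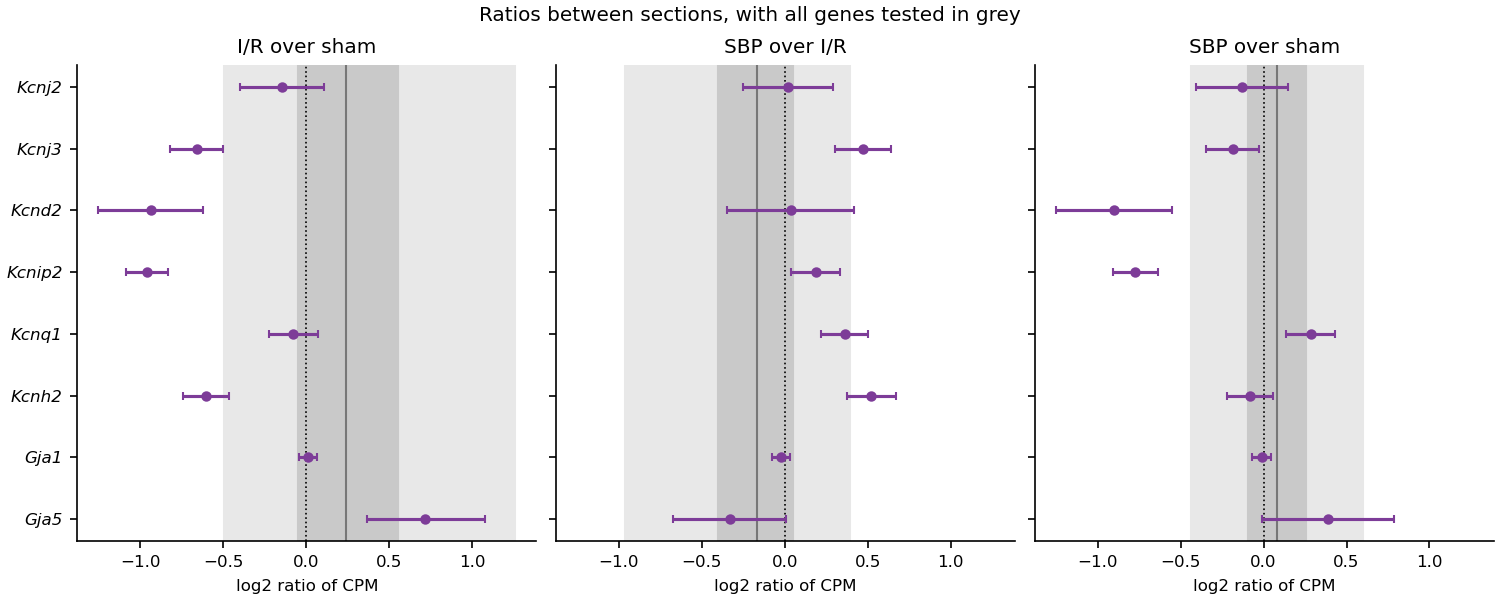
Log2 ratio of CPM between sections (horizontal axis) for each member, with exact conditional binomial 95% intervals. Grey bands hold the middle 50% and 90% of all genes tested and the grey line is their median. Kcnd2 and Kcnip2 lie below the 90% band in I/R over sham and in SBP over sham, and Kcnj3 and Kcnh2 lie below it in I/R over sham and above it in SBP over I/R.

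In SBP over I/R no member was past 1.5-fold, while 15.8% of 12151 genes were, 1.95% higher and 13.8% lower. The intervals of Kcnh2, Kcnj3, Kcnq1 and Kcnip2 lay above 0 and none lay below. No share of all genes with such intervals is given, so this count has no background beside it. Within the spots split by Ankrd1 below, the Kcnip2 ratio was 0.26 (-0.20 to 0.71) in Ankrd1-high and 0.09 (-0.07 to 0.24) in other spots. Both of these intervals held 0, and per cardiomyocyte marker UMI the Kcnip2 ratio over the whole sections was -0.11. The median ratio of the members was 0.11, against -0.17 over all genes tested. With TMM factors Kcnh2 at 0.68 and Kcnj3 at 0.63 were past the fold.

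The summed RNA of cardiomyocyte markers differed in the same direction as the 4 lower members. The sum of 9 cardiomyocyte markers was 0.40 lower on the log2 scale in I/R than in sham and 0.29 higher in SBP than in I/R, with 0 of the 9 past 1.5-fold in either. All 9 were lower in I/R than in sham, while in SBP over I/R 8 of the 9 had a ratio above 0 and Actc1 had -0.10. Counted per cardiomyocyte marker UMI, the I/R over sham ratio was -0.55 for Kcnip2, -0.53 for Kcnd2, -0.26 for Kcnj3 and -0.20 for Kcnh2, so that no member remained past the fold on the lower side. The same count left Kcnip2 and Kcnd2 past the fold in SBP over sham. The part of cardiomyocyte RNA in the ratios was not tested further. Genes of the circadian clock differed too, with 9 of 10 E-box and D-box genes higher past 1.5-fold in SBP than in I/R, among them Dbp at 131 against 52.1 CPM. Klf15, a factor known to control Kcnip2 with time of day, had 7.60 CPM in the sham section, 9.0 CPM in that of I/R and 11.5 CPM in that of SBP, and the part of the time of sampling was not tested.

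Among 41 other ion channel genes, pores and auxiliary subunits of potassium, sodium, calcium and pacemaker channels, 30 had enough UMIs in I/R and sham. Of these 3 were higher and 4 lower past 1.5-fold, against 23.2% higher and 3.49% lower over all genes, and their median log2 ratio was -0.38 against 0.24. Higher were the potassium channel auxiliary subunit genes Kcnab2 (log2 ratio 1.06) and Kcne4 (0.76) and the calcium channel gene Cacna1h (0.67). Lower were the sodium channel genes Scn10a (-1.49), Scn4b (-1.24) and Scn4a (-0.99) and the auxiliary subunit gene Kcnab1 (-0.78). Except for Scn4b these rested on few UMIs in I/R and sham, 18 and 42 for Scn10a, 20 and 33 for Scn4a, and 26 and 37 for Kcnab1. The upper bounds were -0.15 for Scn4a and -0.01 for Kcnab1. The sodium channel beta subunit gene Scn4b had 7.21 CPM in the sham section, 3.04 CPM in that of I/R and 2.45 CPM in that of SBP, and was highest in sham, as was Kcnd2. Kcnk3, the gene of a background potassium channel, was lowest in I/R, with 199, 141 and 204 CPM. The ATP-sensitive channel genes Kcnj11 and Abcc9 were lowest in I/R too, with 39.7, 27.1 and 34.9 CPM for the pore and 87.8, 60.6 and 75.5 CPM for its regulatory subunit. The I/R over sham ratios of Kcnk3, Kcnj11 and Abcc9 were all within 1.5-fold. Of the 12 other potassium channel pore genes 10 were tested in I/R over sham, and 0 were past the fold. In SBP over I/R 28 of the 41 were tested, and 0 were higher and 2 lower, against 1.95% and 13.8% over all genes, with a median of 0.27 against -0.17. In SBP over sham 30 were tested, and 1 was higher and 5 lower, against 5.31% and 2.77% over all genes, with a median of -0.12 against 0.08. Of 4 other connexin genes, listed apart, 3 were tested, and 0 were past the fold in any of these comparisons.

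Spots were then split at 27.0 Ankrd1 UMIs per 10000 UMIs, the 95th percentile of the sham spots. Ankrd1 encodes a stress-induced ankyrin repeat protein of cardiomyocytes by which the study marked the infarcted area. Above the threshold lay 112 spots of sham, 479 of I/R and 326 of SBP. These spots were deeper than the others, with medians of 14927 against 10501.5 UMIs in sham, 17348 against 14103 in I/R, and 11989.5 against 10453 in SBP. The cardiomyocyte marker sum was 0.50, 0.46 and 0.38 lower on the log2 scale in them, in the same order. Levels are therefore given per UMI, and for most members ratios are also given per cardiomyocyte marker UMI. The single markers differed in this. Myl2 had log2 ratios of -0.77 in sham and -0.45 in SBP, Tnnt2 had -0.07 and -0.06, and Actc1 had 0.09 in SBP. Values per cardiomyocyte marker UMI rest on the sum and depend on which markers it holds.

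Kcnip2 and Kcnj3 were lower in Ankrd1-high spots of every section, and Kcnd2 in those of the injured sections. Gja1 was higher in Ankrd1-high spots of every section, and Kcnq1 in those of sham. In sham, 2 members were higher and 2 lower past 1.5-fold, while 28.3% of 10641 genes were higher and 6.08% lower (34.4% in either direction). Per cardiomyocyte marker UMI this split became 3 higher and 1 lower. No share of all genes is given on that scale, here or for I/R and SBP, so the shares printed are not its background. In I/R, 3 members were lower and 0 higher, while 3.88% of 11407 genes were lower and 13.6% higher (17.5%), and per cardiomyocyte marker UMI 1 member was higher and 2 lower. In SBP, 4 members were lower and 0 higher, while 5.02% of 10468 genes were lower and 16.6% higher (21.6%), and per cardiomyocyte marker UMI 1 was higher and 3 lower.

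Kcnip2 had 24.9 CPM in Ankrd1-high and 55.0 CPM in other spots of sham, 13.8 and 32.1 CPM in I/R, and 16.6 and 34.0 CPM in SBP. The log2 ratios were -1.14 (-1.60 to -0.72), -1.21 (-1.51 to -0.93) and -1.04 (-1.43 to -0.67). Per cardiomyocyte marker UMI they were -0.64, -0.76 and -0.65, still past the fold in all 3 sections. Kcnip2 in the other spots of I/R was 0.78 lower on the log2 scale than in the other spots of sham (interval -0.91 to -0.64), so the lower level was also found outside the Ankrd1-high spots. These other spots of I/R still included spots high in the injury genes described below. In spots high in neither Ankrd1 nor injury genes, Kcnip2 had 56.0 CPM (53.0 to 59.2) in sham and 38.6 CPM (35.8 to 41.6) in I/R.

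Kcnj3 had 18.4 CPM in Ankrd1-high and 31.2 CPM in other spots of sham, 8.69 and 23.0 CPM in I/R, and 14.3 and 29.3 CPM in SBP. The log2 ratios were -0.76 (upper bound -0.26), -1.41 (-1.79 to -1.05) and -1.04 (-1.46 to -0.64), and per cardiomyocyte marker UMI they were -0.26, -0.95 and -0.65. In I/R only 0.394% of the genes tested had a lower ratio than Kcnj3. Kcnd2 rested on few UMIs, 13, 23 and 8 in the Ankrd1-high spots. Its ratios were -0.34 (-1.28 to 0.46), -0.90 (-1.61 to -0.25) and -1.38 (-2.63 to -0.34). Per cardiomyocyte marker UMI the Kcnd2 ratio was 0.16 in sham and was within the fold in I/R.

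Kcnh2 had 46.1 CPM in Ankrd1-high and 36.6 CPM in other spots of sham, against 19.1 and 26.6 CPM in I/R and 29.9 and 36.4 CPM in SBP. Its ratios were 0.33 (-0.01 to 0.65), -0.48 (-0.74 to -0.22) and -0.29 (-0.58 to -0.0005), above 0 in sham and below 0 in the injured sections, a difference that was not tested. Per cardiomyocyte marker UMI these ratios were 0.84, -0.02 and 0.10, so the lower level in the injured sections depended on the scaling. Grouped by injury genes in place of Ankrd1, the sham ratio of Kcnh2 was -0.40. Kcnj2 had 16, 55 and 23 UMIs in the Ankrd1-high spots. Its ratios were -0.21 (-1.04 to 0.52), -0.55 (upper bound -0.11) and -0.74 (-1.44 to -0.11), the last of them past the fold. Per cardiomyocyte marker UMI the Kcnj2 ratios were 0.29, -0.09 and -0.36, none of them past the fold.

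**Figure D3:**
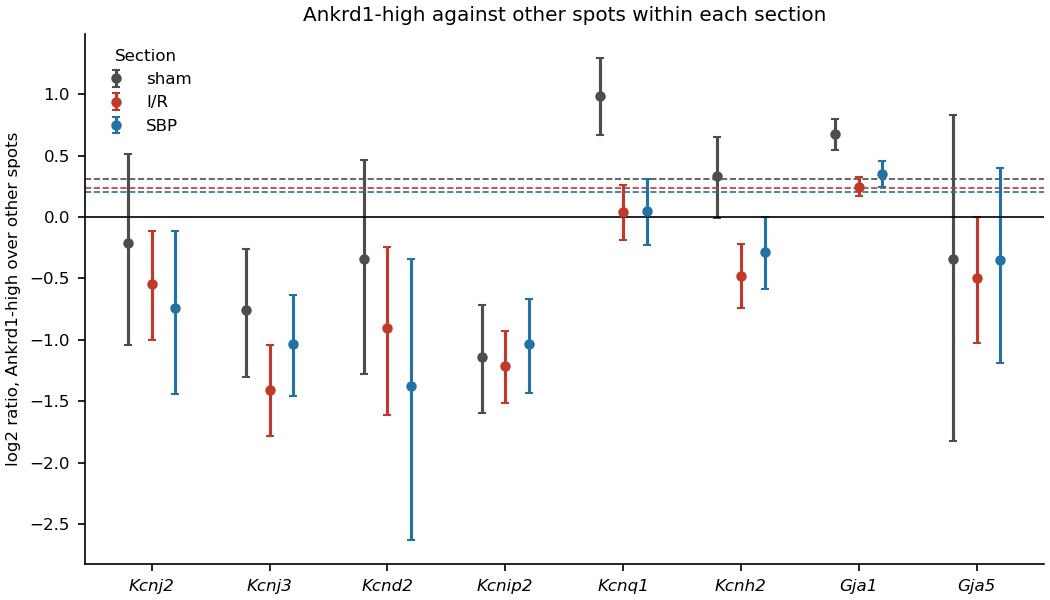
Log2 ratio of CPM in Ankrd1-high over other spots (vertical axis) for each member and section, with exact conditional binomial 95% intervals and a dashed line at the median of all genes tested in each section, 0.31 in the sham section, 0.24 in that of I/R and 0.21 in that of SBP. Kcnip2 and Kcnj3 lie below 0 in all 3 sections, and Kcnq1 and Gja1 lie highest in sham.

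Kcnq1 had 53.7 CPM (43.6 to 65.3) in the Ankrd1-high and 27.0 CPM in the other spots of sham, a log2 ratio of 0.99 (lower bound 0.67). In I/R it had 28.0 and 27.3 CPM and in SBP 36.2 and 35.1 CPM, with ratios of 0.04 (-0.19 to 0.26) and 0.05 (-0.23 to 0.31). Without the 1% of sham spots with the most Kcnq1 UMIs the sham ratio was 0.53, under the fold. Gja1 had 309 CPM (285 to 336) in Ankrd1-high and 194 CPM in other spots of sham, 231 and 194 CPM in I/R and 244 and 191 CPM in SBP, with ratios of 0.67 (0.55 to 0.80), 0.25 (0.17 to 0.33) and 0.35 (0.25 to 0.46). Relative to the median of all genes these were 0.37, 0.01 and 0.15. Without the 1% of sham spots with the most Gja1 UMIs its sham ratio was 0.41. When spots were grouped by injury genes in place of Ankrd1, the ratios of Gja1 in the injured sections were -0.19 (I/R) and -0.06 (SBP). Kcnq1 then had -0.46 within sham. Split by Ankrd1 and counted per cardiomyocyte marker UMI, Gja1 had 1.18, 0.71 and 0.74 in sham, I/R and SBP, past the fold in each. On that scale Kcnq1 had 1.49, 0.50 and 0.43, past the fold in sham only.

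Across 5 bins of Ankrd1, cut at percentiles of the sham spots, Kcnip2 in sham had 58.0, 61.5 and 62.5 CPM in the lower 3 bins, 36.3 CPM in the fourth and 24.9 CPM in the highest. In I/R it had 46.7, 40.6, 33.3, 19.8 and 13.8 CPM from the lowest bin to the highest. Gja1 went the other way, from 175 CPM in the lowest bin of sham to 309 CPM in the highest, from 182 to 231 CPM in I/R and from 158 to 244 CPM in SBP. The same order of bins held for the level of Gja1 in sham and SBP at every step, while in I/R the second bin, at 177 CPM, was below the first. The level of Kcnq1 in sham was 24.1 to 28.8 CPM in the lower 4 bins and 53.7 CPM in the highest alone.

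**Figure D4:**
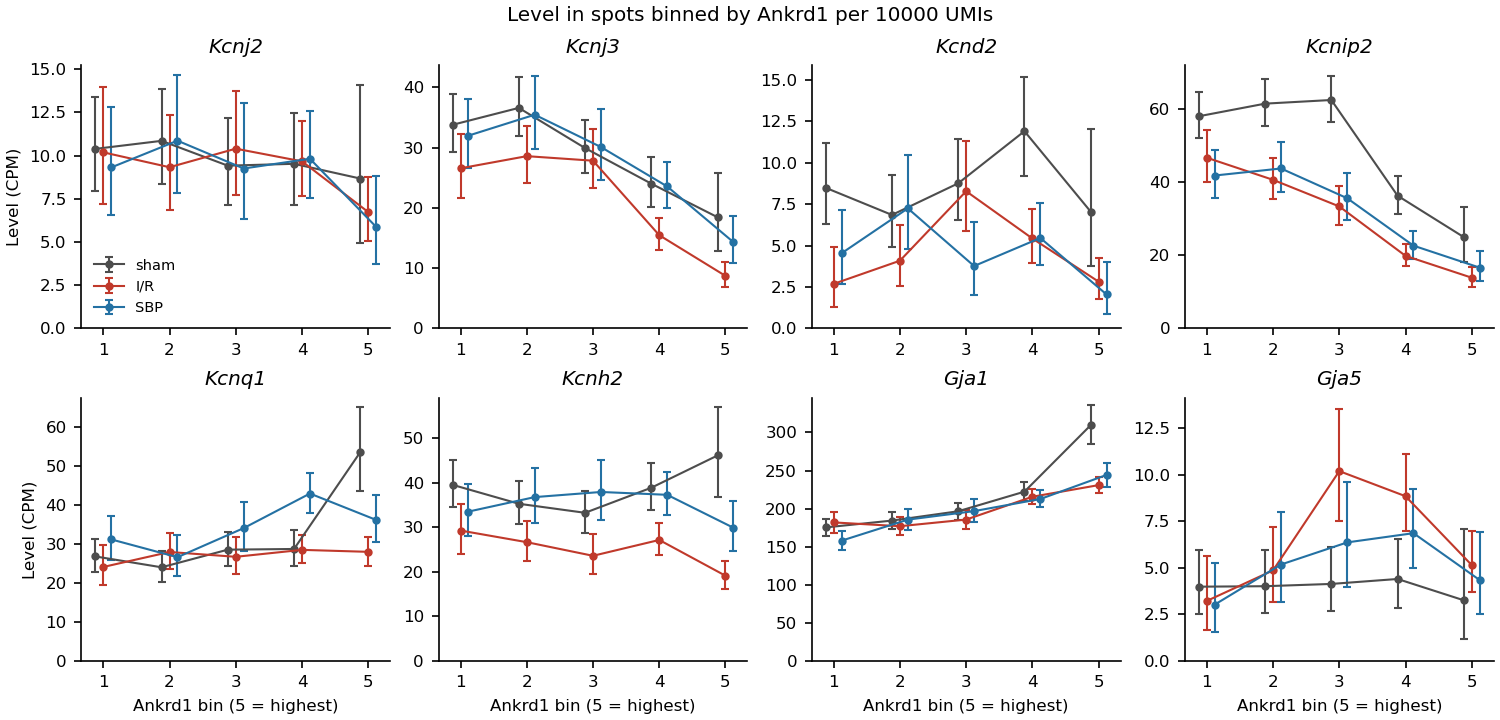
Level in CPM (vertical axis, from 0) over 5 bins of spots by Ankrd1 per 10000 UMIs (horizontal axis, 5 the highest) for each member and section, with exact Poisson 95% intervals. Kcnip2 and Kcnj3 are lowest in bin 5 of every section, and Gja1 is highest there.

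A second split used 6 injury genes, Timp1, Spp1, Lgals3, Serpina3n, Ccn2 and Tnc, again at the 95th percentile of sham, and 817 spots of I/R and 374 of SBP lay above it. In I/R the split crossed with Ankrd1 to give 360 spots high in both, 119 high in Ankrd1 only, 457 high in injury genes only and 1146 high in neither. Kcnip2 had 38.6 CPM in spots high in neither, 17.4 CPM in those high in Ankrd1 only, 12.5 CPM in those high in both and 7.37 CPM in those high in injury genes only. Kcnj3 had 27.5, 15.2, 6.24 and 6.07 CPM in the same order. The level of Gja1 was 211, 236 and 229 CPM in the first 3 kinds of spots and 133 CPM (123 to 144) in the fourth, so its level was low in spots high in injury genes without Ankrd1. In SBP the fourth kind had 18.4 CPM of Kcnip2, 14.8 CPM of Kcnj3 and 163 CPM of Gja1.

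In the 5% of I/R spots highest in injury genes, which held 105 spots, Kcnj3 had 0 UMIs, which allows up to 3.02 CPM, against 19.8 CPM in the other spots, at least 6.56-fold lower, where the limit is a floor of 3 UMIs in these spots and not the exact Poisson bound. Kcnip2 had 2 UMIs there, with a log2 ratio of -3.80 (-6.85 to -1.94), and Kcnh2 also had 2, with -3.66 (-6.70 to -1.80). Gja1 had 81 UMIs or 81.5 CPM, against 208 CPM in the other spots (-1.36, interval -1.69 to -1.04). Gja5 had 28.2 CPM against 5.95 CPM, the only member with a higher level in these spots. The median depth of these spots was 8507 UMIs, against 14830 in the other spots. The part of cardiomyocyte RNA in these ratios was not tested.

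**Figure D5:**
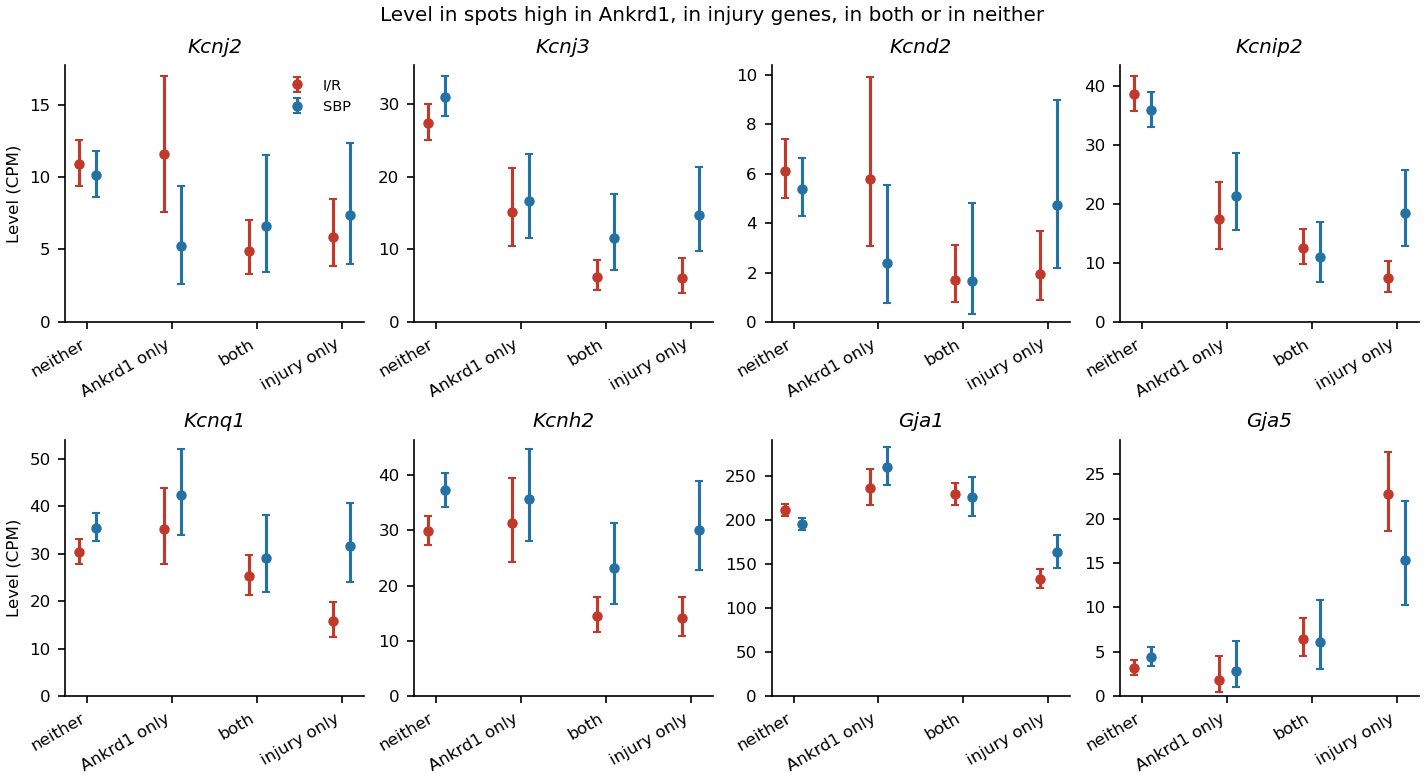
Level in CPM (vertical axis, from 0) in I/R and SBP spots that were high in neither, in Ankrd1 only, in both, or in injury genes only, for each member, with exact Poisson 95% intervals. Kcnip2 of I/R lies at 38.6 CPM in spots high in neither and at 7.37 CPM in spots high in injury genes only, and Gja5 is highest in spots high in injury genes only.

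Gja5 encodes connexin 40, the gap junction protein of arterial endothelium, atria and the fast conduction system, and had 4.06 CPM (3.31 to 4.93) in the sham section, 6.68 CPM (5.79 to 7.67) in that of I/R and 5.32 CPM (4.39 to 6.38) in that of SBP. The intervals of sham and I/R did not overlap, and that of SBP overlapped both. The log2 ratio of I/R over sham was 0.72 (0.37 to 1.08), which was 0.48 relative to the median of all genes, and with TMM or median-of-ratios factors it was 0.49 and 0.48, under the fold. Its UMIs sat in few spots, 77 in the sham section, 130 in that of I/R and 81 in that of SBP, with up to 16 in 1 spot of I/R.

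In the 5% of spots of each section richest in smooth muscle markers Gja5 had 26.7 CPM in the sham section, 68.4 CPM in that of I/R and 50.4 CPM in that of SBP, against 2.89, 3.87 and 3.29 CPM in the other spots. The log2 ratios were 3.21, 4.14 and 3.94, and in the 5% of spots richest in arterial endothelial markers they were 3.18, 3.99 and 3.58. In all 3 sections its level was thus higher where the smooth muscle or arterial endothelial markers were rich. The spots richest in either marker list, a grouping chosen after seeing these values, took 8.24%, 6.78% and 7.22% of all UMIs in the sham, I/R and SBP section and held 40.2%, 52.0% and 44.3% of the Gja5 UMIs.

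Within these vessel-rich spots Gja5 had 19.8 CPM (14.2 to 26.9) in the sham section, 51.2 CPM (41.9 to 62.0) in that of I/R and 32.6 CPM (24.3 to 42.9) in that of SBP. The log2 ratio was 1.37 (0.84 to 1.93) for I/R over sham and -0.65 (-1.16 to -0.15) for SBP over I/R. In the remaining spots it had 2.65, 3.44 and 3.19 CPM, with ratios of 0.38 (-0.10 to 0.87) and -0.11 (-0.59 to 0.36). Of the I/R vessel-rich spots, 137 were also high in injury genes and had 65.1 CPM (52.6 to 79.7), while the other 45 had 18.1 CPM (9.05 to 32.4). In sham only 18 of the 199 vessel-rich spots were high in injury genes. The summed level of the 5 smooth muscle markers was 321 CPM in the sham section, 241 CPM in that of I/R and 126 CPM in that of SBP, and that of the 5 arterial endothelial markers was 27.4, 28.9 and 32.1 CPM. How much of an artery a section happened to hold was not tested. Gja4, which encodes connexin 37 of the arterial endothelium, had 12.2, 16.0 and 14.7 CPM.

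Gja1 did not share this place in the spots richest in smooth muscle markers. Its log2 ratios there were -0.27, -0.45 and -0.28 in sham, I/R and SBP, with all 3 intervals below 0. Values of the remaining members in these spots are not given here. In spots with any UMI of an atrial marker, 62 in the sham section, 78 in that of I/R and 64 in that of SBP, of which 57, 75 and 62 had a UMI of Myl4, the ratio of Kcnj3 was -0.05, -0.14 and 0.04, and each of these intervals held 0.

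By the root mean square difference of centred log2 levels over 6 strata, the Ankrd1-high and other spots of the 3 sections, the 3 genes nearest to Kcnip2 among 7789 were Pcsk6, Hrc and Myh7b at 0.13, 0.14 and 0.16, where the level of Kcnip2 itself spanned 1.99. Nearest to Kcnj3 were Slc36a2, Hrc and Dhrs7c at 0.12, 0.12 and 0.13, so that Hrc, a calcium-binding protein of the sarcoplasmic reticulum, was near to both. Nearest to Kcnh2 were Lmbr1, Myadml2 and Atp1b2, to Kcnq1 were Plscr2, Tmtc1 and Gucd1, to Kcnj2 were Pcca, Gm3646 and Tmem47, and to Gja1 were Scamp2, Mpv17l2 and Mrps17. The levels of Kcnj2 and Gja1 spanned only 0.78 and 0.69. Counting error is not part of this measure, and Kcnj2 had 16 and 23 UMIs in the Ankrd1-high spots of sham and SBP. Nearness among so many genes over 6 strata was not tested. Kcnd2 and Gja5 had fewer than 500 UMIs in all and were left out of this measure.

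Of the other listed channel genes, 24 were tested in the Ankrd1-high against other spots of sham, 26 in I/R and 24 in SBP. In sham 5 were higher and 7 lower past 1.5-fold, against 28.3% and 6.08% over all genes. In I/R 1 was higher and 7 lower, against 13.6% and 3.88%, and in SBP 1 was higher and 10 lower, against 16.6% and 5.02%. Some of the lower ones rested on few UMIs in the Ankrd1-high spots and had intervals that held 0. Among them were Kcnd3 (9 UMIs, -1.91 to 0.29) and Hcn4 (7 UMIs, -2.07 to 0.46) in SBP, and Hcn4 (2 UMIs, -4.93 to 0.03) in sham. Kcne1, the partner of Kcnq1, was lower in each section, with log2 ratios of -1.76 (-4.05 to -0.18), -1.70 (-2.69 to -0.83) and -1.06 (-2.16 to -0.11) on 3, 12 and 10 UMIs in the Ankrd1-high spots. The pacemaker channel gene Hcn2 was lower too, at -1.38, -1.03 and -0.84. The 12 adhesion genes of the intercalated disc, where connexin 43 sits, were split, with 3 higher and 1 lower past the fold within sham, 2 and 1 within I/R, 2 and 2 within SBP. The desmosomal plakophilin gene Pkp2 had log2 ratios of 0.70, 0.92 and 0.69 in sham, I/R and SBP. The alpha-T-catenin gene Ctnna3 had -1.36, -0.69 and -1.33, the first 2 with intervals that held 0, while the desmoglein gene Dsg2 had 0.03, -0.52 and -0.65.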

How the data were processed

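Visium libraries of 3 mouse hearts, 1 per condition, were analysed. The authors deposited raw counts, the UMIs of each gene in each spot over tissue. The submitters' processing notes and the file headers name Space Ranger 1.3.0 and the notes name mm10, whereas the methods give a different version and a human genome that the mouse identifiers in the files do not match. Of 32285 identifiers, 32235 were found in GENCODE M21.

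A spot was kept if at least 200 genes were detected in it. A level was the summed UMIs of a gene over a set of spots per 1000000 UMIs of all genes there (CPM). Ratios were taken for genes with at least 50 UMIs in the 2 groups compared, with exact conditional binomial 95% intervals that cover counting error only, and a gene was called past the fold at 1.5-fold either way. Total UMIs per section were 21631280 to 30238530. No test was made, since each condition had 1 section. Ankrd1-high spots exceeded the 95th percentile of Ankrd1 per 10000 UMIs over sham spots, and Ankrd1 itself was left out of that comparison. Marker-rich spots exceeded the 95th percentile of the list's UMIs per 10000 in their own section. No clustering or doublet detection was run on spots.

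All 8 members were named, and from each gene list up to 3 genes per comparison with the largest absolute log2 ratio. Further genes, only some of them partners of a member, were named after their values were seen (Kcnj5, Kcne1, Kcnk3, Kcnj11, Abcc9, Klf15, Gja4, Dbp, Tnnt2 and Actc1 where the rule did not take them). The members and lists were chosen with earlier results of these data known. The ratios were tested on simulated data. Alternatives were UMIs without mitochondrial genes, TMM factors (edgeR 4.0.16), median-of-ratios size factors (DESeq2 1.42.0), equal weight for spots, other filters and thresholds, thinning to 6500 UMIs, a split by injury genes and, chosen after seeing the data, counts per cardiomyocyte marker UMI. Computations used Python 3.11.15, numpy 2.4.6, scipy 1.17.1 and pandas 2.3.3. Promoters were taken from RefSeq.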

Additional observations from a re-analysis of the deposited data

Results flagged for a closer look

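Kcnq1 differed in opposite directions between SBP and sham in the 2 kinds of spots. Its level in Ankrd1-high spots was 53.7 CPM for sham and 36.2 CPM for SBP, and the log2 ratio of SBP over sham was -0.57 (95% interval -0.95 to -0.18). Its level in the other spots was 27.0 and 35.1 CPM, and the log2 ratio was 0.38 (0.21 to 0.54). The difference between these ratios was not tested, since each section is 1 mouse. The sham value rests on 112 spots, and the split by injury genes turned the direction of Kcnq1 within sham.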

How the results depend on the processing

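No paired analysis was possible because only 1 section stands for each condition, and no replicate could be left out. In I/R over sham, 5 members were past 1.5-fold, against 3 in spots at or below the Ankrd1 threshold and 1 per cardiomyocyte marker UMI. In SBP over I/R, 0 members were past it, against 2 with TMM factors, 2 with median-of-ratios size factors (in both, Kcnh2 and Kcnj3 higher), 1 with equal weight for each spot (Gja5 lower, at -0.65) and 1 per cardiomyocyte marker UMI (Gja5 lower, at -0.62). In Ankrd1-high against other spots of I/R, 3 members were past it, against 6 when spots were grouped by injury genes. Shares of all genes are given for the main settings only, so these alternative counts have no background beside them. The other 52 of 59 counts stayed within 1.5 times the value given. Grouped by injury genes, the Kcnq1 ratio in sham turned from 0.99 to -0.46, while in I/R Gja1 turned from 0.25 to -0.19 and Gja5 from -0.50 to 2.18, and in SBP Gja1 turned from 0.35 to -0.06 and Gja5 from -0.35 to 1.36. The causes were not tested. Of 472 single ratios, 40 changed sign, 35 of them from a ratio whose interval held 0. The other 5 were the Kcnq1 and Gja1 ratios above and, per cardiomyocyte marker UMI, Kcnip2 in SBP over I/R (0.19 to -0.11) and Kcnh2 in Ankrd1-high spots of SBP (-0.29 to 0.10). In all, 393 lay inside the 95% interval of the ratio in the text, and Kcnq1 in sham was the only change of sign from a ratio past the fold. The 95th percentile of the section itself equals the threshold used in sham and was not run there. Depth limits Kcnd2 and Gja5 most, with 102 to 221 and 102 to 202 UMIs per section.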
